A study of Mus musculus with 4 samples.

Results

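The genes of the major histocompatibility complex (MHC, H2 in the mouse) and of antigen presentation were followed in Th2 cells, the helper T cells that make IL-4, IL-5 and IL-13. The members were all symbols that begin with H2- and 10 more by name (B2m, Tap1, Tap2, Tapbp, Psmb8, Psmb9, Psmb10, Ciita, Nlrc5 and Cd74), which gave 52 of the 23283 symbols measured, 42 of them H2- symbols. RNA was sequenced from 4 cultures grown from splenic CD4 T cells of C57BL/6 mice, Menin knockout (KO) or wild type (WT). The groups were KO and WT cells after 5 days in IL-2 (15 ng/ml) plus IL-4 (10 ng/ml), and KO and WT cells of a longer culture named as 3 weeks. That culture began with the same 5 days, followed by 2 days with no cytokine added and then restimulation for 5 days on immobilized antibody to the T cell receptor, in IL-2 and with IL-4 blocked by antibody. The steps named sum to under 3 weeks, and the labels do not say by what means Menin was removed.

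Class I molecules, a heavy chain joined to B2m, show peptides from inside the cell to CD8 T cells and natural killer cells, and nearly all nucleated cells, T cells included, make them. The peptides are cut by the proteasome, whose catalytic subunits can be exchanged for Psmb8, Psmb9 and Psmb10, pumped into the endoplasmic reticulum by Tap1 and Tap2 and loaded with the help of Tapbp (tapasin), and Nlrc5 activates transcription of the class I genes. Class II molecules carry peptides from engulfed material to CD4 T cells, are made in the mouse chiefly by B cells, dendritic cells and macrophages, and depend on the transactivator Ciita, the invariant chain Cd74 and the peptide exchange proteins H2-DM and H2-O.

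Each group held 1 library, so no difference below has a replicate check, and no test was made. Values are FPKM (fragments per kilobase of transcript and per M mapped fragments), and intervals on FPKM ratios are 95% counting intervals from the reads that the values imply, and cultures or mice may vary by more. A symbol was compared where its mean over the 4 libraries was at least 1 FPKM, which held for 36 members and for 10973 symbols in all. It was counted as higher or lower where log2((KO + 1)/(WT + 1)) was at least 1 in size, that is, a 2-fold difference on that scale, which understates differences of low genes. Inferred depth was 20.7 to 23.6 M reads a library. Men1, the gene for Menin, stood at 10.3 FPKM in KO against 32.8 FPKM in WT at 5 days and at 5.88 FPKM in KO against 25.4 FPKM in WT at 3 weeks. The T cell genes Cd3e, Cd3d, Cd4, Cd2 and Lck lay between 99.8 and 329 FPKM in all 4 libraries, with log2 ratios of KO over WT at 3 weeks between -0.45 for Lck and 0.65 for Cd3d. The Th2 genes Gata3, Il4, Il5 and Il13 summed to 85.1 FPKM in KO against 81.8 FPKM in WT at 5 days and to 93.8 FPKM in KO against 316 FPKM in WT at 3 weeks, where all 4 were at least 2-fold lower in KO. The part of this Th2 difference in the results below was not tested. In bulk RNA, fewer cells of a type and less RNA per cell cannot be told apart.

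Class I genes stood higher in KO than in WT at both times, and the class II pathway went different ways. At 5 days 1 of 36 members (2.78%) was at least 2-fold higher in KO, against 2.77% of all compared symbols, and 0 were lower, against 0.82%. Ratios above 0 were found for 30 of the 36 (83.3%), against 46.1% of all compared symbols, and the median log2 ratio was 0.41, against -0.02. At 3 weeks 9 members (25.0%) were higher, against 7.97%, and 4 (11.1%) were lower, against 8.19%. With the near-copy Q and T symbols each summed to 1 value, 2 of 25 compared values were higher and the median log2 ratio was 0.18. The sums lay just under 2-fold at 3 weeks, with KO to WT ratios of 1.96 for the Q region and 1.99 for the T region with H2-Bl. With the symbols kept apart, the median log2 ratio at 3 weeks was 0.56, against -0.08 over all compared symbols, with 24 of 36 (66.7%) above 0 against 43.9%. Of the 9 higher members 8 were class I heavy chain symbols and 1 was the class II chain gene H2-Ab1. The 4 lower members all belonged to the class II pathway.

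**Figure D1:**
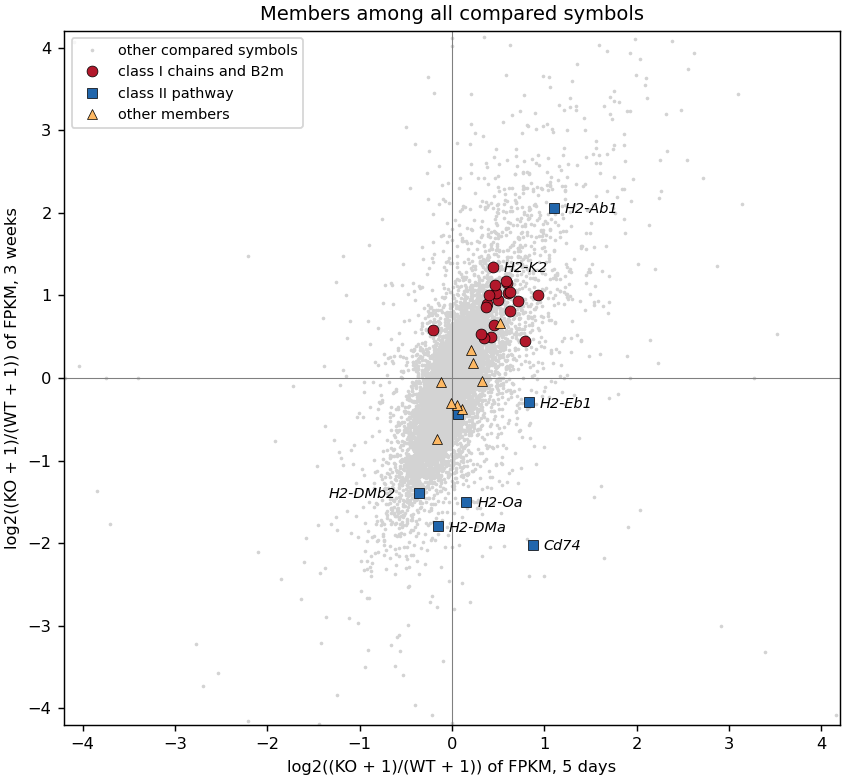
Log2((KO + 1)/(WT + 1)) of FPKM for each compared symbol at 5 days (horizontal) and at 3 weeks (vertical), with members as large symbols by role; 110 of the 10973 symbols lie outside the axes. Class I chains and B2m (circles) lie right of 0 and above 0 with 1 exception at 5 days, H2-T24, while class II pathway members (squares) spread between 2.06 for H2-Ab1 and -2.02 for Cd74 on the vertical axis.

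The classical class I chains H2-K1 and H2-D1, which present peptides to CD8 T cells, were among the most abundant members. H2-K1 (chromosome 17, 33996017 to 34000347, GRCm38, minus strand) had 1717 FPKM in KO against 1114 FPKM in WT at 5 days, and 2183 FPKM in KO against 1243 FPKM in WT at 3 weeks. H2-D1 (chromosome 17, 35262730 to 35267499, plus strand) had 1407 FPKM in KO against 992 FPKM in WT at 5 days, and 2116 FPKM in KO against 1096 FPKM in WT at 3 weeks. Both were highest in the 3-week KO library and lowest in the 5-day WT library. The KO to WT ratio of H2-K1 was 1.54 (1.52 to 1.56) at 5 days and 1.76 (1.73 to 1.78) at 3 weeks. That of H2-D1 was 1.42 at 5 days and 1.93 (1.91 to 1.95) at 3 weeks, so neither reached 2-fold.

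B2m, the light chain shared by class I molecules, had the highest level of all members. It stood at 4919 FPKM in KO against 3666 FPKM in WT at 5 days, and at 6709 FPKM in KO against 4741 FPKM in WT at 3 weeks. Its KO to WT ratio was 1.34 (1.33 to 1.36) at 5 days and 1.42 (1.40 to 1.43) at 3 weeks, below that of the summed heavy chain symbols, which was 1.48 and 1.88 at the same times. The heavy chain symbols summed to 4502 FPKM in KO against 3033 FPKM in WT at 5 days, and to 6237 FPKM in KO against 3320 FPKM in WT at 3 weeks. Within a library, the heavy chain sum was 0.915 times B2m in KO against 0.827 times in WT at 5 days, and 0.930 times in KO against 0.700 times in WT at 3 weeks. Heavy chains and B2m together made up 1.99% of all FPKM in KO against 1.43% in WT at 5 days, and 2.71% in KO against 1.73% in WT at 3 weeks.

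Of the 31 class I heavy chain symbols and B2m, 20 were compared. All 20 had a ratio above 0 at 3 weeks, against 43.9% of all compared symbols, 8 of them at least 2-fold, against 7.97%, with a median log2 ratio of 0.94. At 5 days 19 had a ratio above 0, against 46.1%, and 0 reached 2-fold, against 2.77%, with a median of 0.47. A counting interval could be had for 17 of the 20, and it lay wholly above 1 for 14 at 5 days and for 16 at 3 weeks. These 2 counts have no share over all compared symbols beside them. At high read numbers such an interval excludes 1 even for a small difference. The symbols are not independent measurements, since the class I genes are alike in sequence. Of all 50-base windows in their transcripts, 8.8% in H2-K1, 14.3% in H2-D1, 32.0% in H2-Q6 and 44.7% in H2-T22 also occurred in another gene, so the split of reads between symbols is uncertain. H2-Q8, H2-Q9 and H2-T9, all counted as higher at 3 weeks, had no gene matched in GENCODE M21 and so no interval. Sharing with these symbols could not be read, and the shares given may be too low.

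**Figure D2:**
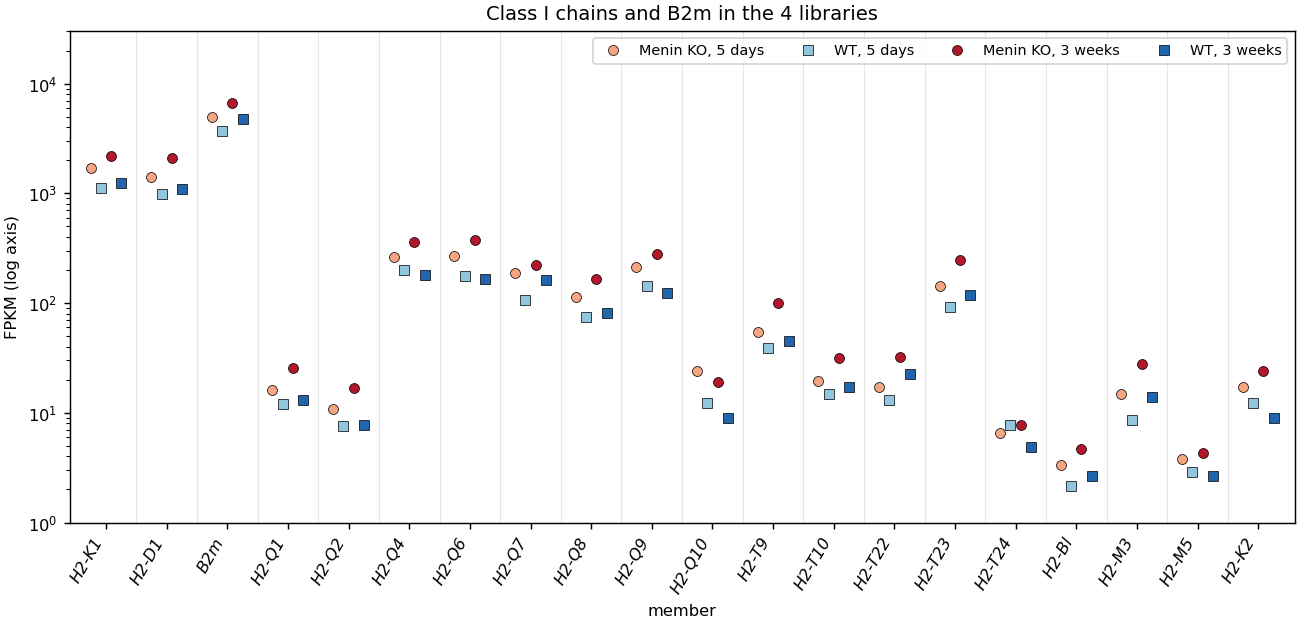
FPKM (log axis) of the 20 compared class I members in the 4 libraries, 1 point a library: KO as circles and WT as squares, 5 days in light and 3 weeks in dark colours. B2m, H2-K1 and H2-D1 lie between 992 and 6709 FPKM, above the other members, and the 3-week KO point is the highest of the 4 for 19 of the 20, H2-Q10 being the exception.

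The Q region codes for non-classical class I chains next to H2-D1, and 8 of its symbols were measured and compared. H2-Q6 to H2-Q9 belong to the Qa-2 group, a class I antigen found on many blood cells. H2-Q6 and H2-Q7 are shown here by sequence because they are near copies whose KO to WT ratios at 3 weeks were not alike. The first lines give the first 60 coding bases from GENCODE M21, with capitals where a base is unlike the same position of H2-Q6. These are H2-Q4 (chr17:35379644-35379703), H2-Q6 (chr17:35424877-35424936) and H2-Q7 (chr17:35439221-35439280), all on the plus strand of GRCm38.
H2-Q4: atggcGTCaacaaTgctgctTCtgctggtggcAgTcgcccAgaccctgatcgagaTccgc
H2-Q6: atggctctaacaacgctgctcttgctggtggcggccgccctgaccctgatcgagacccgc
H2-Q7: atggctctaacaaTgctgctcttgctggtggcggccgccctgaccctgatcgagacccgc
H2-Q7 differed from H2-Q6 at 1 of these bases and H2-Q4 at 10. The 250 bases before the start of H2-Q6 (chr17:35424600-35424849) and of H2-Q7 (chr17:35438905-35439154), from RefSeq on GRCm38, have the Y box letters CCAAT, read on either strand, in capitals.
H2-Q6 promoter: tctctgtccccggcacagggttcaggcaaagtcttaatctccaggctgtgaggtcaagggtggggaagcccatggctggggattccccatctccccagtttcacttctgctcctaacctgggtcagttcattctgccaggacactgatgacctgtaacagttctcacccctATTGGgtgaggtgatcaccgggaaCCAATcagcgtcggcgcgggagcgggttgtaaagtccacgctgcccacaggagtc
H2-Q7 promoter: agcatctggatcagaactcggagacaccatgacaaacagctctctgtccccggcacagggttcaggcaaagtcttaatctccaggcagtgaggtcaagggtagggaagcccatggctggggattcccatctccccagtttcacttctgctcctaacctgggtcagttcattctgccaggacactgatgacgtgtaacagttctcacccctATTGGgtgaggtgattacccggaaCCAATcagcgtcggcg
Both windows hold the letters on each strand, 79 and 55 bases before the annotated start of H2-Q6 and 40 and 16 bases before that of H2-Q7.

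H2-Q6 had 270 FPKM in KO against 178 FPKM in WT at 5 days, and 372 FPKM in KO against 167 FPKM in WT at 3 weeks. H2-Q7 had 186 FPKM in KO against 107 FPKM in WT at 5 days, and 222 FPKM in KO against 163 FPKM in WT at 3 weeks. For both genes each KO library stood above both WT libraries. The ratio of H2-Q6 was 1.51 (1.46 to 1.57) at 5 days and 2.23 (2.16 to 2.31) at 3 weeks. That of H2-Q7 was 1.74 at 5 days and 1.36 (1.31 to 1.41) at 3 weeks. Reads shared between these genes can move between the symbols, and summed over H2-Q6 to H2-Q9 the level was 784 FPKM in KO against 502 FPKM in WT at 5 days and 1037 FPKM in KO against 533 FPKM in WT at 3 weeks. The ratio of these sums was 1.56 at 5 days and 1.95 at 3 weeks.

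Of the other Q region symbols, H2-Q4 had 263 FPKM in KO against 199 FPKM in WT at 5 days, and 361 FPKM in KO against 180 FPKM in WT at 3 weeks. Its 3-week log2 ratio lay just under 1 and it was not counted. H2-Q10, whose product is secreted and known chiefly from liver, had 24.3 FPKM in KO against 12.3 FPKM in WT at 5 days, and 18.9 FPKM in KO against 8.91 FPKM in WT at 3 weeks. It was counted as higher at 3 weeks, and unlike the other Q symbols it had its highest level in the 5-day KO library. H2-Q2, H2-Q8 and H2-Q9 were also counted at 3 weeks, with log2 ratios of 1.03, 1.03 and 1.17, and H2-Q1 was not, at 0.90.

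In the T region, H2-T23 codes for Qa-1, the class I molecule that binds the NKG2A receptor of natural killer and CD8 T cells. H2-T23 (chromosome 17, 36029773 to 36032855, minus strand) had 143 FPKM in KO against 92.2 FPKM in WT at 5 days, and 246 FPKM in KO against 120 FPKM in WT at 3 weeks. H2-T9 had 54.6 FPKM in KO against 39.2 FPKM in WT at 5 days, and 99.7 FPKM in KO against 45.1 FPKM in WT at 3 weeks. Both stood highest in the 3-week KO library and were counted as higher there, with log2 ratios of 1.04 and 1.13. H2-T10 and H2-T22, related genes whose products are ligands of a subset of gamma delta T cell receptors, had log2 ratios of 0.37 and 0.35 at 5 days and of 0.85 and 0.49 at 3 weeks. H2-T24 was the only compared class I symbol with a ratio below 0 at 5 days, with 6.53 FPKM in KO against 7.69 FPKM in WT and an interval that included 1, and at 3 weeks it had 7.81 FPKM in KO against 4.91 FPKM in WT. The gene A930015D03Rik lies on the opposite strand over H2-T22, H2-T23 and H2-T24 and itself had log2 ratios of -0.36 at 5 days and 1.12 at 3 weeks, and the labels and files do not state a strand setting for the counting.

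H2-M3, which presents peptides that begin with formyl methionine, as bacterial and mitochondrial proteins do, had 14.9 FPKM in KO against 8.68 FPKM in WT at 5 days, and 27.7 FPKM in KO against 14.1 FPKM in WT at 3 weeks. Its 3-week log2 ratio of 0.93 stayed below 1. H2-K2, annotated as a transcribed pseudogene, had 17.2 FPKM in KO against 12.4 FPKM in WT at 5 days, and 24.2 FPKM in KO against 8.94 FPKM in WT at 3 weeks. The ratio of H2-K2 at 3 weeks, 2.71 (2.33 to 3.17), was the highest of the compared class I symbols, and 10.9% of its 50-base windows are shared with another gene. H2-M5 and H2-Bl stayed below 5 FPKM in every library, with 3-week log2 ratios of 0.54 and 0.64.

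The Tap1, Tap2, Tapbp and immunoproteasome genes, which supply class I with peptides, had KO to WT log2 ratios between -0.38 and 0.67 over both times. None was counted, against 2.77% higher and 0.82% lower of all compared symbols at 5 days, and 7.97% and 8.19% at 3 weeks. In so short a list, 0 counted is near those shares. Tapbp had 207 FPKM in KO against 143 FPKM in WT at 5 days, and 197 FPKM in KO against 123 FPKM in WT at 3 weeks, with ratios of 1.44 and 1.60. Tap1 had 133 FPKM in KO against 115 FPKM in WT at 5 days, and 137 FPKM in KO against 109 FPKM in WT at 3 weeks. Tap2 had 146 FPKM in KO against 124 FPKM in WT at 5 days, and 136 FPKM in KO against 120 FPKM in WT at 3 weeks. In all 3 genes both KO libraries stood above both WT libraries. Tap1 overlaps Psmb9 on the opposite strand.

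The immunoproteasome subunits did not follow the class I chains at 3 weeks. Psmb8 had 328 FPKM in KO against 305 FPKM in WT at 5 days, and 289 FPKM in KO against 376 FPKM in WT at 3 weeks. Psmb9 had 143 FPKM in KO against 138 FPKM in WT at 5 days, and 145 FPKM in KO against 182 FPKM in WT at 3 weeks. For both the 3-week WT library was the highest of the 4. The ratio of Psmb8 was 1.08 (1.05 to 1.11) at 5 days and 0.768 (0.747 to 0.789) at 3 weeks. Psmb10 had 83.2 FPKM in KO against 66.3 FPKM in WT at 5 days, and 78.8 FPKM in KO against 80.7 FPKM in WT at 3 weeks, and its 3-week interval included 1 and its sign turned under both other scalings.

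The constitutive subunits that these 3 replace, Psmb5, Psmb6 and Psmb7, had 3-week log2 ratios of -0.65, -0.43 and -0.62. Psmb8 was 3.56 times Psmb5 in KO against 2.89 times in WT at 5 days, and 4.16 times in KO against 3.45 times in WT at 3 weeks. Psmb9 was 1.47 times Psmb6 in KO against 1.28 times in WT at 5 days, and 1.81 times in KO against 1.68 times in WT at 3 weeks. Psmb10 was 0.875 times Psmb7 in KO against 0.549 times in WT at 5 days, and 0.951 times in KO against 0.633 times in WT at 3 weeks. Each of the 3 ratios was higher in KO at both times. Over the 8 listed genes of the constitutive proteasome and its activators, 0 were counted in either direction at either time. Of all compared symbols 2.77% were higher and 0.82% lower at 5 days, and 7.97% and 8.19% at 3 weeks. The median log2 ratios of the 8 genes were -0.17 at 5 days and -0.53 at 3 weeks.

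Nlrc5, the class I transactivator, had 21.9 FPKM in KO against 23.9 FPKM in WT at 5 days, and 44.1 FPKM in KO against 45.8 FPKM in WT at 3 weeks. Both 3-week libraries stood above both 5-day libraries. The log2 ratio of 3 weeks over 5 days was 0.98 in KO and 0.91 in WT, while that of KO over WT was -0.12 at 5 days and -0.05 at 3 weeks. The sign of the 3-week value turned under both other scalings tried. Ciita, the class II transactivator, stayed at 0.138 FPKM or less in all 4 libraries.

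**Figure D3:**
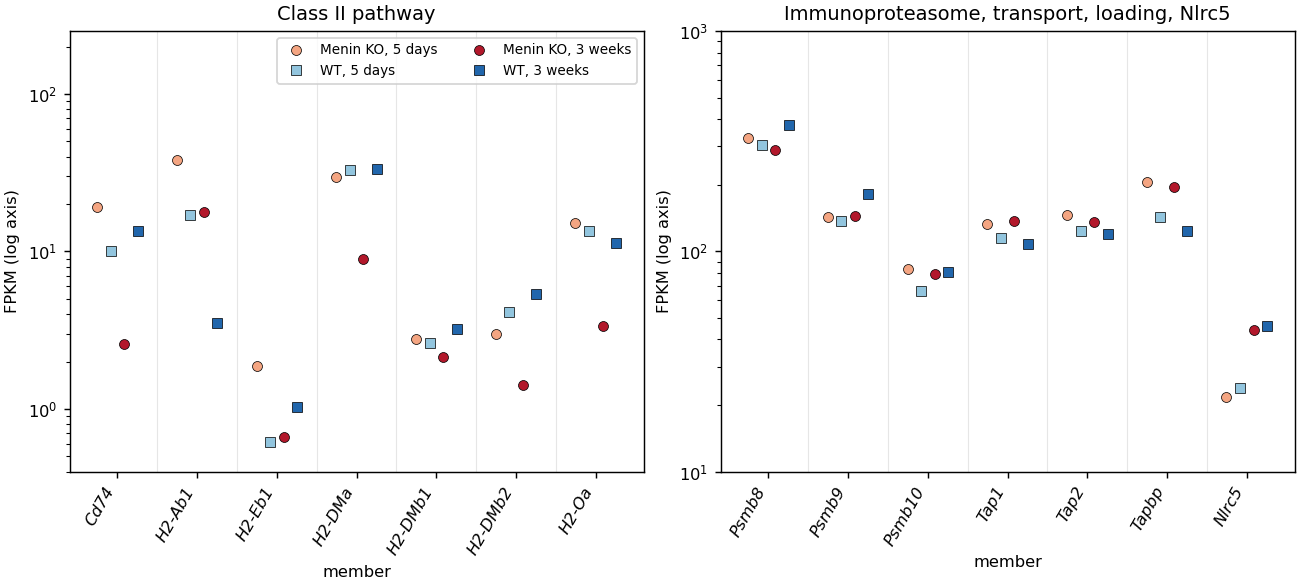
FPKM (log axes) of the class II pathway (left) and of the immunoproteasome, transport, loading and Nlrc5 genes (right) in the 4 libraries, 1 point a library: KO as circles and WT as squares, 5 days in light and 3 weeks in dark colours. Among class II pathway genes the 3-week KO point lies lowest for Cd74, H2-DMa, H2-DMb1, H2-DMb2 and H2-Oa, while for H2-Ab1 the 3-week WT point is lowest at 3.50 FPKM.

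The class II pathway was low in these T cells and its members went opposite ways at 3 weeks. Of its 11 symbols 7 were compared, with 1 higher and 0 lower in KO at 5 days, against 2.77% and 0.82% of all compared symbols, and 1 higher and 4 lower at 3 weeks, against 7.97% and 8.19%. The median log2 ratio was 0.16 at 5 days and -1.39 at 3 weeks, and with a pseudocount of 5 FPKM 2 of the 4, H2-DMb2 and H2-Oa, were no longer counted. H2-Ab1 (chromosome 17, 34257689 to 34269419, plus strand), the beta chain of I-A, had 37.8 FPKM in KO against 17.1 FPKM in WT at 5 days, and 17.8 FPKM in KO against 3.50 FPKM in WT at 3 weeks. Each KO library stood above the WT library of its time, and both 3-week libraries stood below the 5-day library of their genotype, although the 3-week KO and 5-day WT values were close. The KO to WT ratio was 2.22 (1.94 to 2.55) at 5 days and 5.08 (3.93 to 6.71) at 3 weeks.

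H2-Aa, the alpha chain that pairs with H2-Ab1, was not compared, since its mean of 0.779 FPKM lay just outside the limit. It had 1.83 FPKM in KO against 0.387 FPKM in WT at 5 days, and 0.320 FPKM in KO against 0.585 FPKM in WT at 3 weeks. The beta chain was 20.7 times the alpha chain in KO against 44.1 times in WT at 5 days, and 55.5 times in KO against 5.98 times in WT at 3 weeks. H2-Eb1, the beta chain of I-E, whose alpha chain C57BL/6 mice lack, lay just inside the limit with a mean of 1.05 FPKM. It had 1.89 FPKM in KO against 0.620 FPKM in WT at 5 days, and 0.661 FPKM in KO against 1.04 FPKM in WT at 3 weeks.

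Cd74, the invariant chain that blocks the class II groove until peptide exchange, had 19.2 FPKM in KO against 10.0 FPKM in WT at 5 days, and 2.58 FPKM in KO against 13.5 FPKM in WT at 3 weeks. KO was the higher library at 5 days and the lower at 3 weeks. The KO to WT ratio was 1.92 (1.64 to 2.25) at 5 days and 0.191 (0.145 to 0.250) at 3 weeks. Cd74 and H2-Ab1 thus differed in opposite directions at 3 weeks: Cd74 was 0.509 times H2-Ab1 in KO against 0.588 times in WT at 5 days, and 0.145 times in KO against 3.86 times in WT at 3 weeks.

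The 4 compared peptide exchange genes had log2 ratios between -0.36 and 0.16 at 5 days and between -1.79 and -0.44 at 3 weeks. H2-DMa (chromosome 17, 34119541 to 34139101, plus strand), the alpha chain of the H2-DM exchange factor, had 29.5 FPKM in KO against 33.0 FPKM in WT at 5 days, and 8.95 FPKM in KO against 33.5 FPKM in WT at 3 weeks. H2-Oa, a chain of H2-O, which inhibits H2-DM, had 15.2 FPKM in KO against 13.5 FPKM in WT at 5 days, and 3.37 FPKM in KO against 11.4 FPKM in WT at 3 weeks. In both genes the 3-week KO library stood apart below the other 3. The 3-week ratio was 0.267 (0.234 to 0.304) for H2-DMa and 0.297 (0.223 to 0.394) for H2-Oa. Genes on the opposite strand overlap both, Brd2 among those over H2-DMa.

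The beta chains of H2-DM were lower in level. H2-DMb2 had 2.98 FPKM in KO against 4.11 FPKM in WT at 5 days, and 1.43 FPKM in KO against 5.36 FPKM in WT at 3 weeks, a 3-week ratio of 0.266 (0.183 to 0.384). H2-DMb1 had 2.78 FPKM in KO against 2.61 FPKM in WT at 5 days, and 2.14 FPKM in KO against 3.24 FPKM in WT at 3 weeks, with a log2 ratio of -0.44 that was not counted. They are near copies, with 27.2% of the 50-base windows of H2-DMb1 and 29.5% of those of H2-DMb2 shared with another gene, so the difference between them is uncertain. Summed over the 5 exchange genes, the level was 50.5 FPKM in KO against 53.2 FPKM in WT at 5 days, and 15.9 FPKM in KO against 53.5 FPKM in WT at 3 weeks.

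Markers of B cells, dendritic cells, macrophages and their costimulatory ligands, cell types that make class II, were read in the same libraries. Of 23 listed markers 22 were matched, and they summed to 21.5 FPKM in KO against 10.9 FPKM in WT at 5 days, and to 40.7 FPKM in KO against 16.6 FPKM in WT at 3 weeks. Listed at 0 were 3 of them in KO against 5 in WT at 5 days, and 7 in KO against 10 in WT at 3 weeks. The B cell genes Ms4a1 and Pax5 were at 0 in both 3-week libraries, and the 6 B cell markers summed to 2.78 FPKM in KO against 1.66 FPKM in WT at 5 days and 0.340 FPKM in KO against 0.218 FPKM in WT at 3 weeks. The dendritic cell integrin Itgax had 2.45 FPKM in KO against 0.0501 FPKM in WT at 5 days, and 8.63 FPKM in KO against 0.0497 FPKM in WT at 3 weeks. Cd68 had 8.35 FPKM in KO against 3.98 FPKM in WT at 5 days, and 12.9 FPKM in KO against 3.25 FPKM in WT at 3 weeks. Xcr1 had 2.71 FPKM in KO against 2.27 FPKM in WT at 3 weeks, while Zbtb46 had 0.0510 FPKM in KO against 0.0699 FPKM in WT, Fscn1 0.169 FPKM in KO against 0.205 FPKM in WT, and Lyz2 was listed at 0 in KO against 0.0989 FPKM in WT. Much of the 3-week sum came from Cd68, Itgax and Cd80, a costimulatory ligand with 13.3 FPKM in KO against 10.3 FPKM in WT, so the sum does not stand for each listed cell type. Within each time the marker sum and H2-Ab1 were both higher in KO, while at 3 weeks Cd74, H2-DMa, H2-DMb2 and H2-Oa were lower there, and the part of the markers in these results was not tested.

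**Figure D4:**
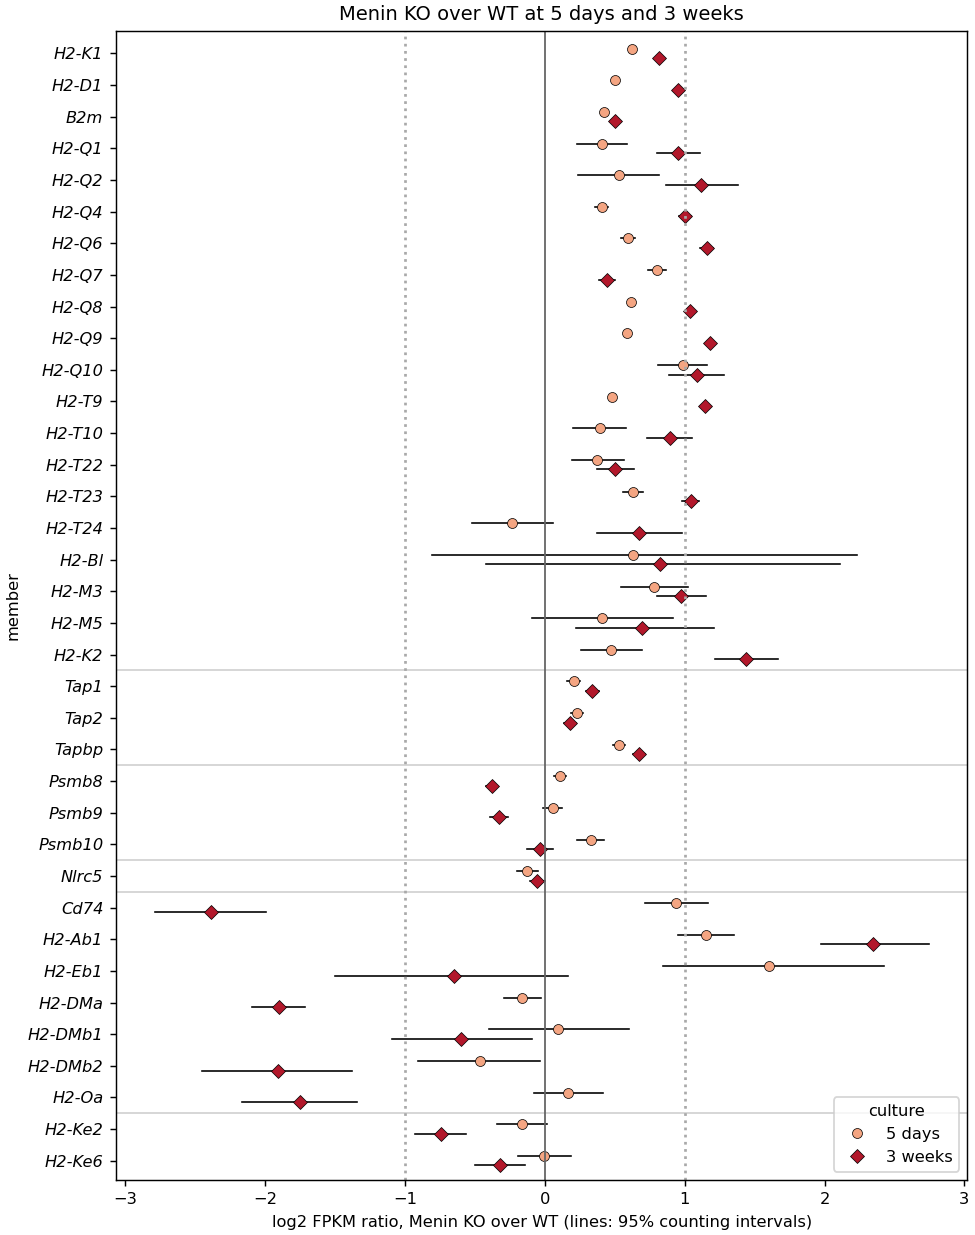
Log2 of the KO to WT ratio of FPKM for the 36 compared members at 5 days (circles) and 3 weeks (diamonds), grouped by role from class I at the top to class II near the bottom; lines are 95% counting intervals, not had for H2-Q8, H2-Q9 and H2-T9, and dotted lines mark a 2-fold ratio. At 3 weeks all 20 class I members lie right of 0, and Cd74, H2-DMa, H2-DMb2 and H2-Oa lie left of the lower dotted line.

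The change between the cultures was read within each genotype. In KO cells 0 of 36 members were at least 2-fold higher at 3 weeks than at 5 days, against 4.35% of all compared symbols, and 4 (11.1%) were lower, against 4.39%. These 4 were Cd74, H2-Ab1, H2-DMa and H2-Oa, with log2 ratios of -2.50, -1.05, -1.62 and -1.89. In WT cells 0 were higher, against 3.03%, and 1, H2-Ab1, was lower at -2.01, against 2.83%. The log2 ratios of Cd74, H2-DMa and H2-Oa in WT were 0.40, 0.02 and -0.23. Class I chains and B2m had a ratio above 0 for 19 of 20 in KO, against 42.9% of all compared symbols, with a median of 0.47. In WT the ratio was above 0 for 13 of 20, against 51.9%, with a median of 0.13.

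The difference of the genotype ratios, 3 weeks minus 5 days, used all 4 libraries. It was at least 2-fold lower for 5 of 36 members (13.9%), against 4.7% of all compared symbols, and higher for 0, against 4.53%. The 5 were Cd74 at -2.89, H2-Oa at -1.66, H2-DMa at -1.64, H2-Eb1 at -1.13 and H2-DMb2 at -1.03. H2-Eb1 only just passed the filter, with a mean of 1.05 FPKM. Its highest value, 1.89 FPKM, was in the 5-day KO library, which also enters the difference. Its 3-week KO to WT interval, 0.35 to 1.12, included 1. H2-Ab1 lay at the other end with 0.96. Among class I chains and B2m the median was 0.43, with 19 of 20 above 0, against 42.6% of all compared symbols. H2-Q7 was the exception at -0.35.

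Promoters were searched for 3 motifs on both strands in the 250 bases before each RefSeq start, since class I and class II genes are known to share an X box and Y box element bound by the RFX and NF-Y complexes, and class I genes to carry interferon response elements. The Y box letters CCAAT were in 20 of 25 promoters of compared members (80.0%), against 33.85% of all 32851 promoters and 35.65% of the promoters of compared symbols. The 20 are not all separate sites. Psmb9 and Tap1 have overlapping windows that hold the same letters, and H2-K1 entered with 2 overlapping windows. The interferon response core, GAAA repeated after 2 bases of any kind, was in 3 of the 25, against 2.98%, and the 3 were B2m, H2-T22 and H2-T23. Only exact matches were counted. The windows of H2-K1, H2-D1, H2-Q6 and H2-Q7 hold the similar letters TTTCACTTCT, so lack of an exact match does not show that an interferon element is absent. The STAT site TTCNNNGAA was in 3, against 7.02%, and the 3 were H2-DMb2, H2-M3 and Psmb8. A match is a description of letters and not of a bound site. The B2m window (chr2:122147437-122147686, plus strand) is shown because it holds both an interferon core, 139 bases before the start, and the Y box letters at 53, both in capitals.
B2m promoter: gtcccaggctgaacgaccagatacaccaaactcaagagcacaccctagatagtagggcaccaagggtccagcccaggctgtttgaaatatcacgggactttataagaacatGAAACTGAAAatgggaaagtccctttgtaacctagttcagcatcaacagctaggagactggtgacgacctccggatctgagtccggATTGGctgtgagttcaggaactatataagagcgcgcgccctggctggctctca
The Y box letters with 12 bases before and 13 after, on the strand of each gene, are shown for members that stood higher (H2-D1, H2-T23) and lower (H2-Oa, H2-DMb2) in KO at 3 weeks, and for H2-DMb1, the near copy of H2-DMb2. They are H2-D1 (2 windows, chr17:35263006-35263035 and chr17:35263029-35263058, plus strand), H2-T23 (chr17:36032736-36032765, minus strand), H2-Oa (chr17:34092324-34092353, plus strand), H2-DMb2 (chr17:34145147-34145176, plus strand) and H2-DMb1 (chr17:34153118-34153147, plus strand).
H2-D1, 76 bases before: ggtctcactatcATTGGgtggcgagattcc
H2-D1, 53 bases before: agattccaggagCCAATcagcgtcgccgcg
H2-T23: gttttctaaaagCCAATcagcgacgcagag
H2-Oa: agaactgctctgATTGGctgcttaccgcaa
H2-DMb2: agtcacttagtgATTGGactgacttaacta
H2-DMb1: attcactcagtgATTGGtctgacctgccta
The letters stood before members that were higher and before members that were lower in KO.

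Genes of the same pathways that are no members were read from lists of known members. Of 15 genes of interferon signalling to MHC genes 0 were counted at 5 days, against 2.77% higher and 0.82% lower of all compared symbols. At 3 weeks 5 were higher and 0 lower in KO, against 7.97% and 8.19%. The median log2 ratios were 0.01 at 5 days and 0.51 at 3 weeks. Irf1, an interferon-induced transcription factor, had 85.2 FPKM in KO against 71.5 FPKM in WT at 5 days, and 123 FPKM in KO against 47.5 FPKM in WT at 3 weeks. Ifngr1, a chain of the interferon gamma receptor, had 125 FPKM in KO against 62.5 FPKM in WT at 5 days, and 178 FPKM in KO against 48.2 FPKM in WT at 3 weeks. The others counted at 3 weeks were Irf8, Irf9 and Ifng, and Ifng itself had 6.03 FPKM in KO against 0.168 FPKM in WT. At 5 days Ifng had 0.700 FPKM in KO against 0.477 FPKM in WT. Ifng thus passed the filter only through the 3-week KO library, in which it was high. The other receptor chain, Ifngr2, had 2.52 FPKM in KO against 5.67 FPKM in WT at 3 weeks.

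Of 7 subunits of the RFX, NF-Y and CREB complexes 0 were counted at either time, with median log2 ratios of -0.15 at 5 days and -0.41 at 3 weeks. Of all compared symbols 2.77% were higher and 0.82% lower at 5 days, and 7.97% and 8.19% at 3 weeks. Of 9 peptide loading genes 1, the aminopeptidase Lnpep, was counted as higher at 3 weeks, close to the 7.97% of all compared symbols. The class I chaperones were not counted: Calr had 645 FPKM in KO against 590 FPKM in WT at that time, and Canx had 86.2 FPKM in KO against 151 FPKM in WT. Of 6 compared class II processing genes 2 were higher at 5 days, against 2.77% of all compared symbols, and 3 at 3 weeks, against 7.97%. The lysosomal protease Lgmn had 43.8 FPKM in KO against 8.73 FPKM in WT at 5 days, and 57.4 FPKM in KO against 22.3 FPKM in WT at 3 weeks. Ctsl, another lysosomal protease, had 7.97 FPKM in KO against 3.08 FPKM in WT at 5 days, and 8.85 FPKM in KO against 1.36 FPKM in WT at 3 weeks. The third was Cd63, a lysosomal membrane protein, with 13.5 FPKM in KO against 0.800 FPKM in WT at 3 weeks. At 3 weeks 5 of the 6 had a ratio above 0. The 1 below was the protease Ctss, with 48.8 FPKM in KO against 68.9 FPKM in WT.

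The remaining members were few or low. H2-Ke2 and H2-Ke6 carry the H2 name from their place in the complex and code for a prefoldin subunit and a steroid dehydrogenase. H2-Ke2 had 61.4 FPKM in KO against 68.8 FPKM in WT at 5 days, and 49.2 FPKM in KO against 82.5 FPKM in WT at 3 weeks. H2-Ke6 had 28.5 FPKM in KO against 28.6 FPKM in WT at 5 days, and 26.3 FPKM in KO against 32.8 FPKM in WT at 3 weeks. Of the 16 members not compared, 4 were listed at 0 in all libraries (H2-Ea-ps, H2-M1, H2-M9 and H2-M11), and the highest value among the 16 was that of H2-Aa in the 5-day KO library. Among them were H2-Ob, the partner of H2-Oa, with 0.107 FPKM in KO against 0.0582 FPKM in WT at 5 days and listed at 0 in both 3-week libraries, and the H2-M10 genes, known from vomeronasal neurons.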

How the data were processed

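RNA of 4 Th2 cultures, 1 library a group by the sample titles and genotype labels, was prepared with TruSeq Stranded mRNA reagents, per the labels. The authors deposited FPKM values, a unit read from Cufflinks in the notes and from the values. Bowtie 0.12.8, TopHat 1.3.2, Cufflinks 2.0.2 and mm10 are named per the submitters' processing notes; for the annotation, read layout, strand setting and filters, the sources used here name nothing. Each file held 23746 lines. Values of a symbol on several lines were summed (no member was), and 1 cell with a spreadsheet error was left out.

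Ratios were log2((a + 1)/(b + 1)) of FPKM over symbols with a mean of at least 1 FPKM, counted at 2-fold. With 1 library a group no test was made within a time, and a fit with genotype and time as additive terms, which could test genotype across both times, was not run. Depth was inferred from low values, which fall near whole reads for a transcript length less 200 bases: 59.6% to 61.8% of such values lay within 0.05 of a whole number, so depth is approximate. Reads implied by FPKM gave 95% Clopper-Pearson counting intervals on FPKM ratios, for the 49 members with a GENCODE M21 gene. Promoters came from RefSeq (GRCm38), for 37 members. Steps were run on simulated counts, with Python 3.11.15, pandas 2.3.3 and SciPy 1.17.1. The simulation held counting noise only, so it cannot speak to variation between cultures or mice, or to reads shared between genes. Alternatives were other pseudocounts, filters, scalings, and handling of symbols. Every compared member and low class II members could be named, as could genes of the lists. Members and lists were chosen with earlier results of these data known. No protein sequence was used here.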

Additional observations from a re-analysis of the deposited data

Results flagged for a closer look

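Cd74 and Psmb8 had KO to WT ratios that lay on opposite sides of 1 at the 2 times, with counting intervals that excluded 1 at both. No share over all compared symbols is given for this rule. For Cd74 the genotype log2 ratio was 0.88 at 5 days and -2.02 at 3 weeks, a difference of -2.89. For Psmb8 it was 0.11 at 5 days and -0.38 at 3 weeks, a difference of -0.49. The 5-day ratio of Psmb8, 1.08 (1.05 to 1.11), excluded 1 at a high read number, and the interval holds counting noise only. Neither difference was tested, since each group held 1 library.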

How the results depend on the processing

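No paired analysis within a time was possible because each group held 1 library, and no library could be left out. A fit that sets KO beside WT across the 2 times was not run. Under other scalings the sign turned for Nlrc5 and Psmb10 at 3 weeks, H2-Ke6 at 5 days, Tapbp between the cultures in KO, H2-DMa and H2-Q2 between them in WT and Tap2 in the difference of the ratios. The 5-day count of 1 member higher became 2 with a pseudocount of 0.1 FPKM or with no filter and 0 with a pseudocount of 5 FPKM, and the 5-day median log2 ratio of 0.41 became 0.22 with no filter. The 3-week median of 0.56 became 0.045 with no filter, over all 52 members, and 0.18 with the Q and T symbols each summed, where 2 members were higher in place of 9. The Q and T sums then lay just under 2-fold. A pseudocount of 5 FPKM left 2 of 4 members lower at 3 weeks and 3 of 5 in the difference of the ratios, as did a mean of at least 5 FPKM for the difference. Under a pseudocount of 0.1 FPKM, median-of-ratios and upper-quartile scaling, 1 member in place of 0 was higher at 3 weeks than at 5 days in KO, and 1 in place of 0 in the difference. The cause was not tested. As reported, the highest values lay just under the limit of 1, at 0.98 for Nlrc5 in KO and 0.96 for H2-Ab1 in the difference. With upper-quartile scaling H2-D1, H2-M3, H2-Q1 and H2-Q4 also passed 2-fold at 3 weeks, and with a pseudocount of 5 FPKM H2-DMb2, H2-Oa, H2-Q2, H2-Q8 and H2-Q10 no longer did. Depth limits low members: among compared members the interval of H2-Bl at 5 days, 0.570 to 4.71, was wide.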

Other observations

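MHC-like genes outside the complex were measured in the same libraries, and 5 of 12 listed were compared. Cd1d1, which presents lipids to natural killer T cells, had 6.13 FPKM in KO against 3.25 FPKM in WT at 5 days, and 9.01 FPKM in KO against 4.30 FPKM in WT at 3 weeks. Ulbp1, a ligand of the NKG2D receptor, had 15.6 FPKM in KO against 15.3 FPKM in WT at 5 days, and 29.2 FPKM in KO against 19.4 FPKM in WT at 3 weeks. Mr1, which presents vitamin B metabolites to MAIT cells, had 5.76 FPKM in KO against 5.43 FPKM in WT at 3 weeks. Procr was the 1 gene of the 5 counted, lower in KO at 3 weeks with 0.781 FPKM against 2.89 FPKM in WT. Of all compared symbols 8.19% were lower at that time. At 5 days Procr had 0.709 FPKM in KO against 0.294 FPKM in WT. It thus passed the filter only through the 3-week WT library, which also made it lower in KO. The median log2 ratio of the 5 was 0.40 at 5 days and 0.41 at 3 weeks.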
